A study of Mus musculus with 9 samples.

Results

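The 35 genes described here encode the folding machinery of the endoplasmic reticulum (ER) and the unfolded protein response that controls it, out of 25755 genes named on the array. They fall into 11 chaperones and their partners, 5 folding enzymes, 4 genes of protein entry into the ER, 7 genes of ER-associated degradation, 5 sensors or transcription factors and 3 outputs of prolonged stress. Each gene was found by the symbol of its probe, and 5 genes with more than 1 probe (Edem1, Atf6, Pdia3, Hspa5 and Manf) were read from the probe with the highest mean intensity. The lungs came from BALB/c mice at about 12 weeks of age that had received ovalbumin (OVA, 5 arrays) or PBS (4 arrays), and the labels name no other allele or agent. OVA challenge of mice is a model of allergic airway inflammation. Each array carried 2 dyes. By the labels the Cy3 channel (channel 1) held combined RNA of the PBS-treated lungs and the Cy5 channel (channel 2) held RNA of a single lung, from 100 ng of RNA amplified in 2 rounds. The labels do not say that the lungs of a group came from separate mice, so p-values cover only how far these samples scatter, which may be technical.

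Proteins bound for secretion or for membranes enter the ER through the Sec61 channel and are folded there by chaperones such as BiP (Hspa5) and by enzymes that join or rearrange disulfide bonds. When folding falls behind, the sensors IRE1 (Ern1), PERK (Eif2ak3) and ATF6 signal to the nucleus: IRE1 splices the Xbp1 mRNA, PERK slows translation while favouring that of Atf4, and ATF6 is cut in the Golgi to free a transcription factor. XBP1 and ATF6 act on chaperone and degradation genes, while ATF4 acts on Ddit3 (CHOP) and Trib3, which are linked to prolonged stress and cell death. In the airway, mucus-secreting goblet cells and antibody-secreting plasma cells are known for a large ER.

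ATF6 and XBP1 are known to act through the ER stress response element (ERSE), spelled CCAAT, 9 bases of any kind and CCACG, and through ERSE-II, spelled ATTGG, 1 base of any kind and CCACG. ATF4 acts through the C/EBP-ATF response element (CARE), of which the form TTGCATCA was searched. Promoter windows from 250 bases before to 50 bases after the transcript start were taken from RefSeq (GRCm38.p6), were found for 29 of the 35 genes and were searched on both strands. The genes with no window were Hyou1, Manf, Sec61a1, Sec11c, Derl1 and Atf6. ERSE letters lay in the windows of 9 genes (31% of the 29, against 0.137% of the 27025 genes with a window). ERSE-II letters lay in those of Dnajb11 and Herpud1 (0.0444% of all genes), and CARE letters in that of Herpud1 (1.03% of all genes). The core TGACGTGG of the XBP1-binding unfolded protein response element lay in none of the 29 and in 0.714% of all genes. A match of letters describes the window and is not a binding site. The stretches below show where the element sits in each gene with ERSE and in Herpud1, which holds both other elements. They are written 5′ to 3′ on the strand of the gene with 20 bases on either side, and capitals mark the elements. An ERSE that begins with CGTGG and ends with ATTGG is read on the other strand. The stretches lie at chr2:34772005-34772063 (Hspa5, + strand), chr8:84847055-84847113 (Calr, - strand), chr8:94386297-94386407 (Herpud1, + strand), chr10:75893222-75893280 (Derl3, + strand), chr10:86705513-86705676 (Hsp90b1, - strand), chr11:50325780-50325838 (Canx, - strand), chr12:17266471-17266529 (Pdia6, + strand), chr14:118937807-118937865 (Dnajc3, + strand), chr15:88819500-88819558 (Creld2, + strand) and chr19:6046512-6046570 (Syvn1, + strand).
Hspa5: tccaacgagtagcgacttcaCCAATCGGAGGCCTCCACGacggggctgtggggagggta
Calr: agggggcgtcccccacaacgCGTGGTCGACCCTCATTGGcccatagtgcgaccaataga
Herpud1: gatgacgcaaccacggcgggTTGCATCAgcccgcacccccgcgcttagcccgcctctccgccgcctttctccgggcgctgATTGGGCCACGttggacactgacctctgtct
Derl3: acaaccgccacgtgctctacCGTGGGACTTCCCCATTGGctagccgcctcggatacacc
Hsp90b1: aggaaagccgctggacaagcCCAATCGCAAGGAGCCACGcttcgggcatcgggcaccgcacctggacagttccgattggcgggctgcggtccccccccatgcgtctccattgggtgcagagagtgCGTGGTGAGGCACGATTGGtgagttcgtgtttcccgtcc
Canx: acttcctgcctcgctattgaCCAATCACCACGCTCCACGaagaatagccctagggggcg
Pdia6: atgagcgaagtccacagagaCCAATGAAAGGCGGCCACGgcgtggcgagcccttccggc
Dnajc3: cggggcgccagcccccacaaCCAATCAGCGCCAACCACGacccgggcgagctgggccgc
Creld2: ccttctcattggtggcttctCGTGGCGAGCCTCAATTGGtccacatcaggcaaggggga
Syvn1: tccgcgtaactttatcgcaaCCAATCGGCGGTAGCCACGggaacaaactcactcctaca

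The deposited table gives an intensity per probe in each channel, and values below are log2 of channel 2 over channel 1 on each array unless an intensity is named. The total intensity of a channel lay between 41722 and 43610 and its median between 0.12 and 0.17. Ratios over 25649 genes correlated at 0.743 to 0.871 between OVA arrays and at -0.289 to 0.142 between PBS arrays. Of 25714 genes tested with limma (two-sided, Benjamini-Hochberg over all genes, adjusted p under 0.05), 4453 (17.3%) were higher and 5910 (23%) lower in the ratio on OVA arrays than on PBS arrays. In whole-lung RNA, more cells of a type and more RNA per cell cannot be told apart. The single channels go against the labels, which put the same pool in channel 1 of every array. In channel 1 alone 7109 genes (27.6%) differed between OVA and PBS arrays, and in channel 2 alone 2 genes (0.00778%) did, with 931 at an unadjusted p under 0.05. Directions below are those of the ratio as deposited. If the sign of the ratio is turned on the OVA arrays, 5784 genes (22.5%) are higher and 4252 (16.5%) lower. Which direction holds for OVA-challenged lung is not stated in these files and was not tested.

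The folding machinery moved together in the ratio. Of the 34 members tested, 25 were higher on OVA arrays, 3 were lower and 6 were not called, where 40.3% of all genes were called (17.3% higher and 23% lower). The median log2 change was 0.33 over the members and -0.02 over all genes tested. Every OVA array lay above every PBS array for 23 members (14.7% of all genes with a value on every array) and below for 2 (19.7%). The ratio changed by at least 2-fold for 5 members, Derl3, Sdf2l1, Manf, Pdia4 and Creld2 (3.12% of all genes changed by that much in either direction). With 0.05 added to both channels, Sdf2l1 and Pdia4 changed by less than that (log2 changes of 0.89 and 0.92). One of the 3 called lower is Edem1, whose probes disagree. With that sign turned, 2 members were higher, Atf6 and Ddit3, and 26 were lower, with a median of -0.39. Fkbp11 then took the place of Creld2 among the 5 that changed by at least 2-fold. In the authors' deposited table, 12 members (34.3%) had a p-value under 0.05 on all 5 OVA arrays, as had 11.3% of all genes.

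**Figure D1:**
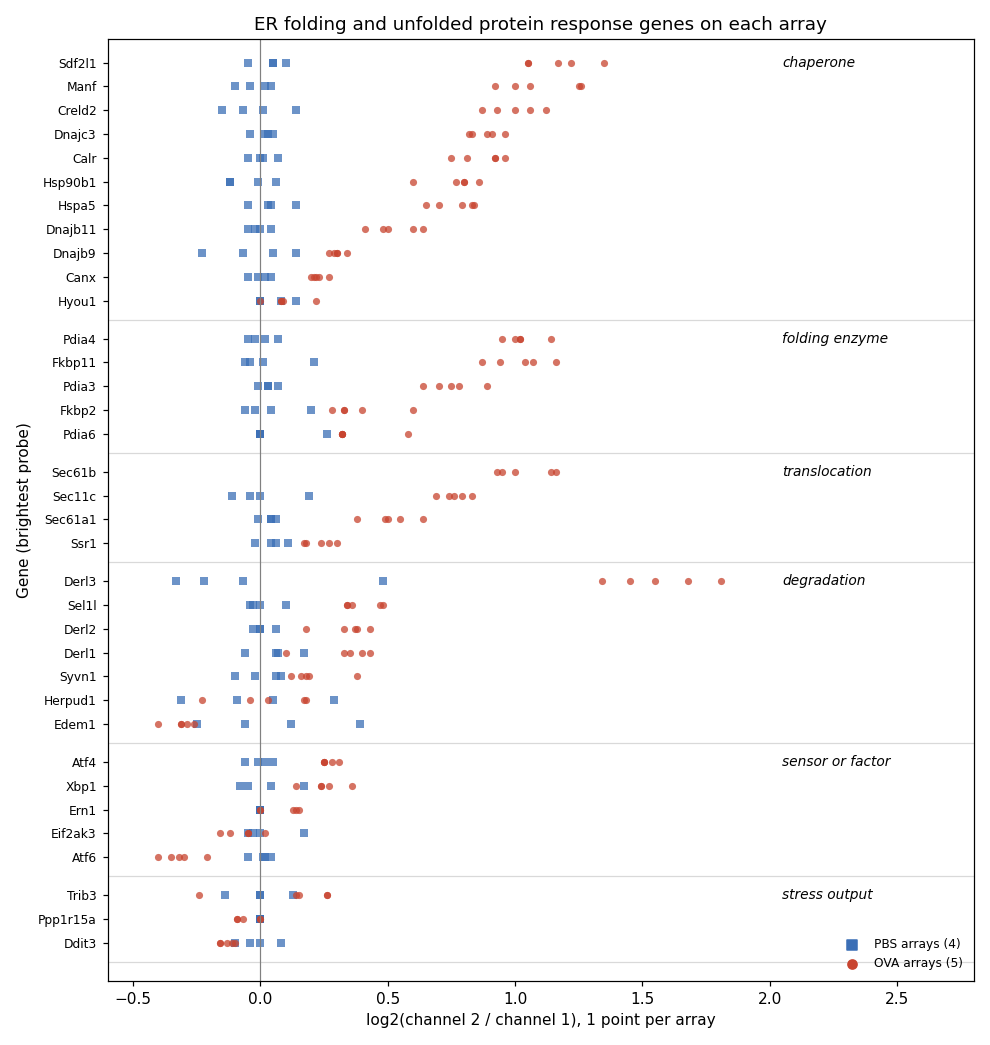
Log2 of channel 2 over channel 1 (horizontal axis) for each of the 35 genes (vertical axis, by role), with 1 point per array (squares, 4 PBS arrays, circles, 5 OVA arrays). OVA arrays stand to the right of PBS arrays for most chaperones, enzymes and translocation genes. They stand mostly to the right for Atf4 and Xbp1 too, and to the left for Atf6. The points of Ern1, Eif2ak3 and the stress outputs mostly mix around 0. Sec61b has no PBS points.

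Of the 11 chaperones and partners, 10 rose and 1, Hyou1, was not called, with a median log2 change of 0.81. Hspa5 encodes BiP, the main ER chaperone of the Hsp70 family, which also holds the sensors inactive. Its log2 ratio was 0.70, 0.79, 0.84, 0.83 and 0.65 on OVA arrays 1 to 5 and 0.03, 0.04, 0.14 and -0.05 on PBS arrays 1 to 4. The OVA arrays all lay above the PBS arrays, and the change was 0.72 ± 0.05 (SE, 1.65-fold, adjusted p = 1.43e-05 by limma). A second Hspa5 probe (mean intensity 0.124) had a ratio of 0.00 on every OVA array and a difference of 0.02, and its groups overlapped. The rise of Hspa5 therefore rests on 1 of its probes.

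Hsp90b1 encodes GRP94, the Hsp90 of the ER. It stood at 0.60, 0.80, 0.86, 0.77 and 0.80 on OVA arrays and at -0.12, 0.06, -0.12 and -0.01 on PBS arrays. The groups did not overlap, and the change was 0.81 ± 0.06 (1.76-fold, adjusted p = 1.44e-05). Calr encodes calreticulin, a chaperone that binds the sugar chains of new glycoproteins. Its ratio was 0.81, 0.92, 0.96, 0.92 and 0.75 on OVA arrays and 0.00, 0.07, -0.05 and 0.01 on PBS arrays. The change was 0.86 ± 0.05 (adjusted p = 2.93e-06). Its membrane-bound counterpart calnexin (Canx) was at 0.20 to 0.27 on OVA arrays and -0.05 to 0.04 on PBS arrays. It rose by 0.23 ± 0.03 (adjusted p = 2.01e-04).

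The cochaperones of BiP rose by different amounts. Dnajc3 (p58IPK), which carries unfolded proteins to BiP and is also known as an inhibitor of PERK, was at 0.82, 0.91, 0.96, 0.89 and 0.83 on OVA arrays and at 0.02, 0.03, 0.05 and -0.04 on PBS arrays. These groups lay far apart for their spread, and the change of 0.87 ± 0.03 had the lowest adjusted p among the members (5.79e-07). Dnajb11 (ERdj3) rose by 0.53 ± 0.05 (adjusted p = 5.23e-05) and Dnajb9 (ERdj4) by 0.33 ± 0.07 (adjusted p = 0.00461). For both genes the OVA arrays lay above the PBS arrays. Sdf2l1, a partner of ERdj3, was at 1.05, 1.22, 1.17, 1.35 and 1.05 on OVA arrays and at 0.05, -0.05, 0.10 and 0.05 on PBS arrays. The rise of 1.13 ± 0.07 (2.19-fold, adjusted p = 4.22e-06) was the largest of a chaperone or partner. This rank depends on low intensities. With 0.05 added to both channels the change of Sdf2l1 was 0.89 and that of Manf 1.11.

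Manf and Creld2 encode ER-resident proteins that are partly secreted under ER stress. Manf was at 0.92, 1.25, 1.26, 1.00 and 1.06 on OVA arrays and at 0.04, 0.02, -0.04 and -0.10 on PBS arrays. It rose by 1.12 ± 0.08 (2.17-fold, adjusted p = 1.06e-05), and a second Manf probe that was near the bottom of the intensity range (mean 0.0306) differed by 0.48 with groups that did not overlap. Creld2 was at 0.87, 1.06, 1.12, 1.00 and 0.93 on OVA arrays and at 0.14, 0.01, -0.07 and -0.15 on PBS arrays. The groups stood apart, with a change of 1.01 ± 0.07 (2.02-fold, adjusted p = 1.05e-05). Hyou1 (GRP170), which exchanges the nucleotide of BiP, was the exception in the ratio as deposited. Its ratios were 0.08, 0.08, 0.09, 0.00 and 0.22 on OVA arrays and 0.08, 0.14, 0.00 and 0.00 on PBS arrays. The groups overlapped and the difference was 0.04 ± 0.05 (adjusted p = 0.591). The mean intensity of its probe was 0.166, near the median of the channels, and rounded intensities gave few distinct ratios. With the sign of the ratio turned on the OVA arrays, Hyou1 was called lower (-0.15 ± 0.05, adjusted p = 0.0422 by limma).

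All 5 folding enzymes rose, with a median log2 change of 0.72. Pdia4 (ERp72), a protein disulfide isomerase, was at 0.95, 1.14, 1.00, 1.02 and 1.02 on OVA arrays and at 0.02, -0.02, 0.07 and -0.05 on PBS arrays. The arrays of each group lay close together, and the change was 1.02 ± 0.04 (2.03-fold, adjusted p = 6.22e-07). Pdia3 (ERp57), which works with calreticulin and calnexin on glycoproteins, was at 0.64 to 0.89 on OVA arrays and at -0.01 to 0.07 on PBS arrays. It rose by 0.72 ± 0.05 (adjusted p = 8.84e-06), and its second probe differed by 0.25 with groups that did not overlap. Fkbp11 and Fkbp2 belong to the FKBP family of peptidyl-prolyl isomerases. Fkbp11 was at 0.94, 1.16, 0.87, 1.04 and 1.07 on OVA arrays and at 0.21, -0.06, 0.01 and -0.04 on PBS arrays. It rose by 0.99 ± 0.08 (1.98-fold, adjusted p = 1.92e-05), and Fkbp2 by 0.35 ± 0.08 (adjusted p = 0.00658). Fkbp2 lost its call with the replicate number as a block (adjusted p = 0.0582).

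Pdia6 (P5), another disulfide isomerase, rose by 0.31 ± 0.08 (adjusted p = 0.0134), but its probe was among the dimmest and the rounded intensities gave few distinct ratios. It stood at 0.32 on 4 OVA arrays and at 0.00 on 3 PBS arrays, with 0.26 on PBS array 3 and the highest value on OVA array 2. With 0.05 added to both channels its change was 0.15, and with the replicate block its adjusted p was 0.0795.

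The tested member genes of protein entry into the ER also rose in the ratio. Sec61a1, the pore of the Sec61 channel, was at 0.38, 0.50, 0.64, 0.49 and 0.55 on OVA arrays and at 0.06, 0.04, -0.01 and 0.04 on PBS arrays. It rose by 0.48 ± 0.05 (1.39-fold, adjusted p = 9.59e-05). Sec11c, a catalytic subunit of the signal peptidase, was at 0.69, 0.79, 0.74, 0.83 and 0.76 on OVA arrays and at 0.19, 0.00, -0.11 and -0.04 on PBS arrays. It rose by 0.75 ± 0.06 (1.68-fold, adjusted p = 2.29e-05). Ssr1, a subunit of the translocon-associated protein complex, rose by 0.18 ± 0.04 (adjusted p = 0.00407). For these 3 genes every OVA array lay above every PBS array. Sec61b, the small subunit of the channel, could not be tested because its value was blank on all 4 PBS arrays. On OVA arrays its ratio was 0.95, 0.93, 1.00, 1.14 and 1.16, from an intensity of 25.3 ± 2.88 (SD, n = 5) in channel 1 and 51.6 ± 2.44 in channel 2, where the highest intensity of any probe in the table was 70.2.

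Degradation genes were more varied. ER-associated degradation returns misfolded proteins to the cytosol for the proteasome, and of its 7 members here 5 rose, 1 (Herpud1) was not called and 1 (Edem1) was called lower on a probe that its second probe contradicts, with a median of 0.26. Derl3 encodes the derlin found mainly in secretory tissues. Its ratio was 1.34, 1.81, 1.55, 1.45 and 1.68 on OVA arrays and 0.48, -0.07, -0.22 and -0.33 on PBS arrays. Despite the wide spread of the PBS arrays the groups stood far apart, and the rise of 1.60 ± 0.17 (3.04-fold, adjusted p = 1.24e-04) was the largest among the 34 members tested. Its relatives Derl2 and Derl1 rose by 0.33 ± 0.05 (adjusted p = 0.001) and 0.26 ± 0.07 (adjusted p = 0.0221). Derl1 was at 0.10 on OVA array 1 and 0.17 on PBS array 3, so its groups overlapped, and its call was lost without PBS array 1 or 4 or OVA array 4 or 5 (adjusted p from 0.0504 to 0.0634) and with the replicate block (0.115).

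Sel1l and Syvn1 form the membrane complex that passes misfolded proteins on and tags them with ubiquitin. Sel1l rose by 0.39 ± 0.04 (1.31-fold, adjusted p = 1.76e-04). Syvn1 (HRD1) was at 0.12, 0.38, 0.19, 0.18 and 0.16 on OVA arrays and at 0.06, 0.08, -0.02 and -0.10 on PBS arrays. It rose by 0.20 ± 0.06 (adjusted p = 0.0263), and the call was lost without PBS array 3 or 4 (adjusted p = 0.0665 and 0.073) and with quantile normalised ratios (0.0622). Herpud1, a membrane protein of the same complex and a known target of both ATF6 and ATF4, was at 0.18, 0.03, -0.23, -0.04 and 0.17 on OVA arrays and at 0.29, -0.09, 0.05 and -0.31 on PBS arrays. Both groups spread over either side of 0, and the difference was 0.04 ± 0.13 (adjusted p = 0.867).

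Edem1, which draws misfolded glycoproteins into degradation, gave opposite answers from 2 probes. Its brighter probe was at -0.40, -0.29, -0.26, -0.31 and -0.31 on OVA arrays and at -0.25, -0.06, 0.39 and 0.12 on PBS arrays, a change of -0.36 ± 0.11 (adjusted p = 0.0347). The other probe was at 0.38, 0.51, 0.40, 0.45 and 0.32 on OVA arrays, a difference of 0.36 with groups that did not overlap. The call of the brighter probe was lost without PBS array 4 or any 1 of the 5 OVA arrays (adjusted p from 0.0567 to 0.0899), with the replicate block (0.067) and with the mean over probes. No direction can be given for Edem1.

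The sensors differed from the chaperones. Ern1, the IRE1 kinase and nuclease, was at 0.13, 0.14, 0.00, 0.00 and 0.15 on OVA arrays and at 0.00 on all 4 PBS arrays (difference 0.08 ± 0.04, adjusted p = 0.133). Eif2ak3 (PERK) was at -0.05, 0.02, -0.16, -0.05 and -0.12 on OVA arrays and at 0.00, -0.03, 0.17 and -0.05 on PBS arrays (difference -0.09 ± 0.05, adjusted p = 0.24). Neither was called, and both sets of arrays overlapped. The Ern1 probe was dim (mean intensity 0.104), and its rounded intensities gave few distinct ratios. Atf6 was at -0.32, -0.21, -0.40, -0.30 and -0.35 on OVA arrays and at 0.02, 0.01, 0.04 and -0.05 on PBS arrays. On this probe every OVA array lay below every PBS array, and Atf6 fell by 0.32 ± 0.04 (adjusted p = 3.17e-04). A second Atf6 probe differed by -0.04 with groups that overlapped, and the mean over both probes gave -0.18 (adjusted p = 0.0067).

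The transcription factors downstream of the sensors rose slightly. Xbp1 was at 0.24, 0.27, 0.36, 0.14 and 0.24 on OVA arrays and at -0.05, -0.08, 0.04 and 0.17 on PBS arrays. OVA array 4 lay below PBS array 4, and the change was 0.23 ± 0.06 (1.17-fold, adjusted p = 0.016, or 0.105 with the replicate block). The table holds 1 probe for Xbp1 and does not separate its spliced form. Atf4 was at 0.25, 0.31, 0.25, 0.28 and 0.25 on OVA arrays and at -0.01, 0.02, 0.05 and -0.06 on PBS arrays. Its groups did not overlap, and the change was 0.27 ± 0.03 (1.20-fold, adjusted p = 9.26e-05). PERK acts on Atf4 through translation, which mRNA levels do not show.

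None of the 3 stress outputs rose, and their median was -0.05. Ddit3 encodes CHOP, a transcription factor of prolonged stress. It was at -0.11, -0.10, -0.16, -0.16 and -0.13 on OVA arrays and at 0.08, -0.04, 0.00 and -0.10 on PBS arrays. OVA array 2 and PBS array 4 met, and Ddit3 fell by 0.12 ± 0.04 (adjusted p = 0.0365). That call was lost without PBS array 1, 2 or 3 or OVA array 3, 4 or 5 (adjusted p from 0.0574 to 0.0805) and under 4 other settings (0.0521 to 0.102). Trib3, a pseudokinase induced by ATF4 and CHOP, was at 0.26, 0.14, -0.24, 0.15 and 0.26 on OVA arrays and at 0.00, 0.00, 0.13 and -0.14 on PBS arrays. OVA array 3 stood below all other arrays, and the difference was 0.12 ± 0.11 (adjusted p = 0.436). Without that array the difference was 0.21 and the gene was called higher (adjusted p = 0.032). The Trib3 probe was also dim (mean intensity 0.111). Ppp1r15a (GADD34), which restarts translation after PERK has slowed it, differed by -0.05 ± 0.03 (adjusted p = 0.179).

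Set side by side, the 16 chaperones and folding enzymes had 15 members higher and none lower. Of all genes tested, 17.3% were higher and 23% lower. The sensors Ern1, Eif2ak3 and Atf6 with Ddit3 and Trib3 had none higher and 2 lower, of 5. The lower calls were those of Atf6, whose second probe had overlapping groups, and Ddit3, whose call several settings lost. The probes of Ern1 and Trib3 were dim (mean intensities 0.104 and 0.111, where the lowest channel median was 0.12). Rounding left these 2 genes few distinct ratios, so a small change could be missed. The median of the first group was 0.70, 0.80, 0.86, 0.80 and 0.75 on OVA arrays 1 to 5, and that of the second group was -0.05, 0.02, -0.16, -0.05 and -0.12. On PBS arrays both medians stayed between -0.05 and 0.04. The first median exceeded the second by 0.74 to 1.02 on OVA arrays and by 0.01 to 0.05 on PBS arrays. By the labels the Cy3 channel held combined RNA of the PBS-treated lungs. If so, small ratios on PBS arrays follow from the design, for every gene. The PBS ratios would then share their pool and not be independent, while limma took the arrays as independent. The members were chosen with earlier results known, so this contrast is a description without a test of its own.

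**Figure D2:**
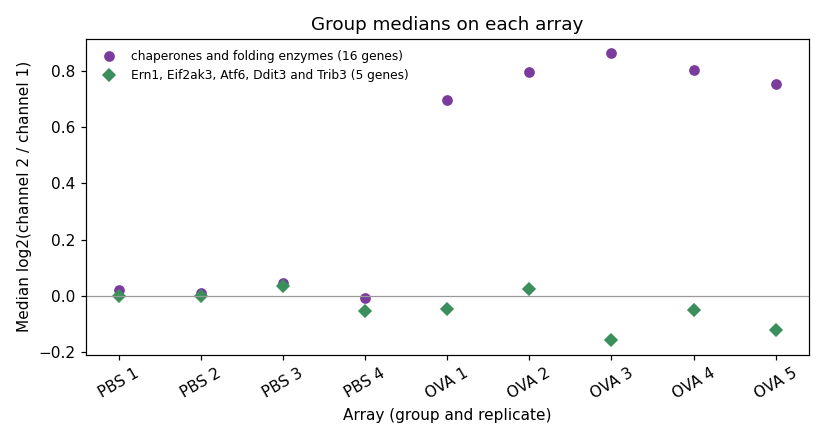
Median log2 of channel 2 over channel 1 (vertical axis) on each of the 9 arrays (horizontal axis), for the 16 chaperones and folding enzymes (circles) and for Ern1, Eif2ak3, Atf6, Ddit3 and Trib3 (diamonds). The circles stand at 0.70 or above on the 5 OVA arrays and near 0 on the 4 PBS arrays, and the diamonds stay near 0 on all 9.

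**Figure D3:**
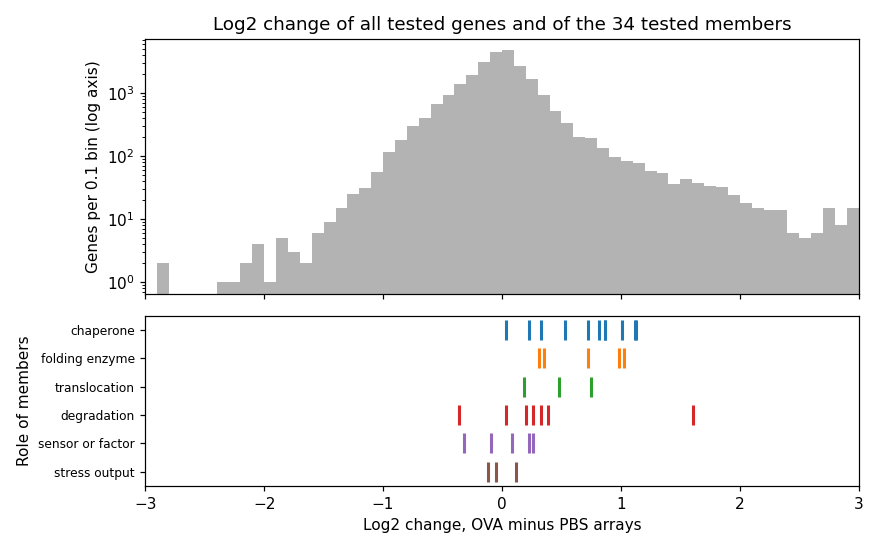
Number of tested genes per bin of log2 change (top, log axis) and the 34 tested members by role (bottom, 1 tick per gene), over log2 change from OVA minus PBS arrays. The ticks of chaperones and enzymes lie mostly above 0.3. Those of sensors or factors and of stress outputs lie on both sides of 0, between -0.32 and 0.27. Outside the plotted range fall 46 genes of the whole table.

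The intensities behind the ratios moved in channel 1. Of the 34 members, 23 were lower (12% of all genes) and 3 higher (15.6%) in channel 1 of OVA arrays by limma, with a median of -0.43 (-0.04 over all genes). With each array centred on its median, 14 were lower and 16 called in all. In channel 2 no member was called, none had an unadjusted p under 0.05, and the lowest adjusted p was 0.874. Manf had an intensity of 19.8 ± 1.33 (SD, n = 4) in channel 1 and 19.5 ± 1.01 in channel 2 of PBS arrays. On OVA arrays channel 1 read 11.3, 8.72, 9.13, 11.1 and 9.79, and channel 2 stood at 21.3 ± 0.778 (n = 5). The low values are thus those of channel 1 on OVA arrays, the channel labelled as the PBS pool.

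The same held for other members. Pdia4 had intensities of 0.630 ± 0.0141 (channel 1) and 0.632 ± 0.0263 (channel 2) on PBS arrays, and at 0.312 ± 0.0164 and 0.636 ± 0.0207 on OVA arrays. For Derl3 these means were 0.400 ± 0.0183 and 0.398 ± 0.0943 on PBS arrays, and 0.146 ± 0.0182 and 0.430 ± 0.0158 on OVA arrays. Channel 1 of Hspa5 read 9.26, 9.15, 10.4 and 9.34 on PBS arrays and 5.79, 5.58, 5.69, 6.44 and 5.66 on OVA arrays, with no overlap. Channel 2 of Hspa5 read 9.46, 9.40, 11.5 and 9.04 on PBS arrays and 9.38, 9.64, 10.2, 11.4 and 8.89 on OVA arrays, which overlapped throughout. Atf6 was among the 3 members higher in channel 1 of OVA arrays, with 2.29 ± 0.0852 on PBS and 3.36 ± 0.509 on OVA arrays. Edem1 and Eif2ak3 were the other two (log2 changes of 0.30 and 0.20).

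**Figure D4:**
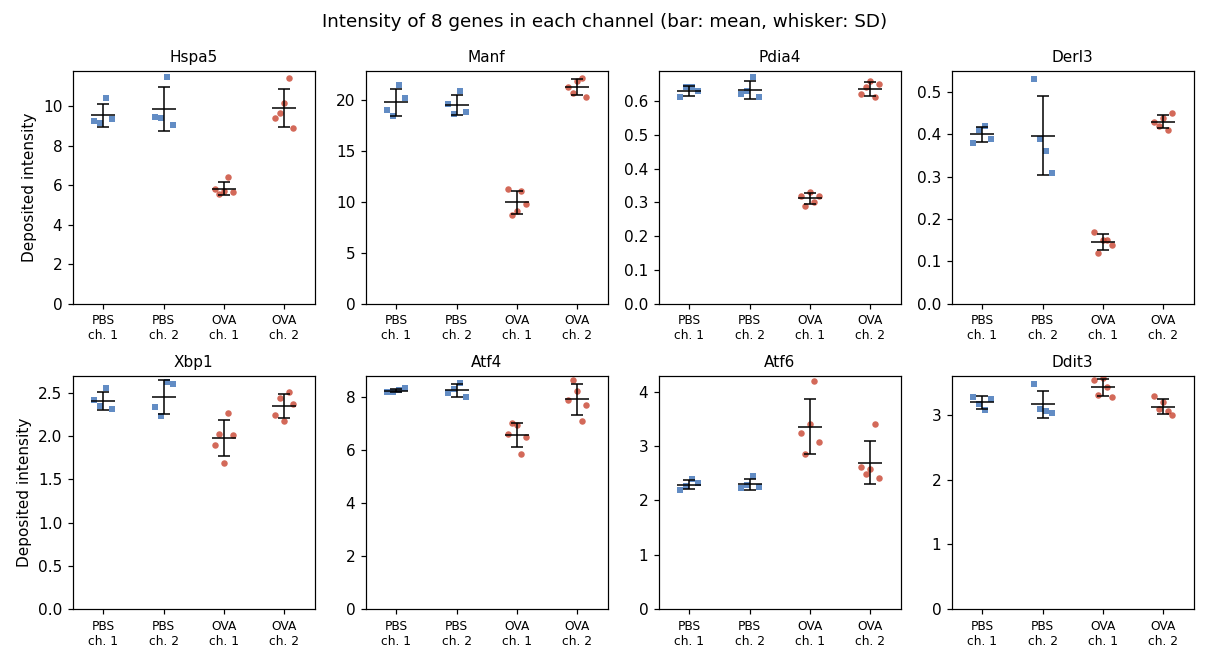
Deposited intensity (vertical axis, from 0) of 8 genes in channel 1 and channel 2 of PBS and OVA arrays, with 1 point per array, a bar at the mean and whiskers of 1 SD. For Hspa5, Manf, Pdia4 and Derl3 channel 1 of the OVA arrays stands below the other columns, which lie at similar levels. For Atf6 it stands highest.

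The members whose windows hold ERSE, printed above, were all higher in the ratio as deposited. These were 9 of 9 members, with log2 changes from 0.20 (Syvn1) to 1.60 (Derl3) and a median of 0.81. Of the 19 tested members with a window and no ERSE, 12 were higher and 2 lower, with a median of 0.27. The sets also differ in role, since most sensors and all stress outputs are among those without ERSE. The chaperones and folding enzymes with a window and no ERSE were all higher. They stood at 0.33 (Dnajb9), 0.53 (Dnajb11), 1.13 (Sdf2l1), 0.72 (Pdia3), 1.02 (Pdia4), 0.35 (Fkbp2) and 0.99 (Fkbp11). Of the 18 tested genes outside the member list that hold ERSE, 4 were higher and 3 lower, with a median of 0.00, and of the 16918 tested genes with a window 3227 were higher and 4031 lower, with a median of -0.01. With the sign turned, all 9 members with ERSE were lower (median -0.80), as were 12 of the 19 without it, 1 of which was higher (median -0.27), and of the other genes with ERSE 3 were higher and 2 lower (median 0.06). Hsp90b1 holds 2 matches. Herpud1 holds ERSE-II and CARE and was not called, and the ERSE-II letters of Dnajb11 lie after its start. Sdf2l1 and Pdia4, at 1.13 and 1.02, hold none of the 4 letter patterns in these windows. The search was made with the changes of the members known.

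**Figure D5:**
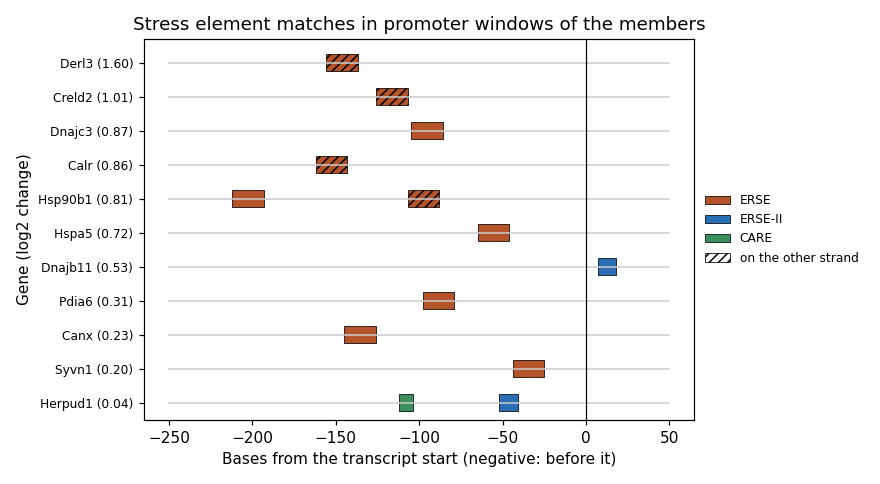
Position of ERSE, ERSE-II and CARE letters (boxes, hatched where read on the other strand) in the promoter windows of 11 members, in bases from the transcript start (horizontal axis), with the log2 change of each gene beside its name. All boxes but that of Dnajb11 lie before the start, and the ERSE boxes belong to genes whose changes run from 0.20 to 1.60.

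Genes of the same pathway outside the member list were more divided. Of 75 listed, 71 were tested, and 31 were higher and 14 lower, where 17.3% of all genes were higher and 23% lower. Their median was 0.07. With the sign turned, 13 were higher and 28 lower, with a median of -0.11. The largest rise was that of Ern2 (IRE1 beta), the IRE1 form of mucosal epithelium, by 2.96 ± 0.07 (7.76-fold, adjusted p = 8.91e-08), where Ern1 was not called. Among 8 further stress output genes 4 were higher and 1 lower. Atf3, a transcription factor induced by many stresses, rose by 1.48 ± 0.08 (adjusted p = 2.35e-06). Slc7a11, a cystine transporter under ATF4 control, rose by 1.13 ± 0.16 (adjusted p = 6.39e-04), and Vldlr, a lipoprotein receptor, fell by 1.25 ± 0.04 (adjusted p = 3.51e-07). Chac1, Asns and Nupr1, also known ATF4 targets, stood at 0.02, 0.06 and 0.04 and were not called. The remaining genes of that list were both higher. Ddit4 rose by 0.37 ± 0.09 (adjusted p = 0.0134 by limma), and Cebpb, blank on some arrays, by 0.62 ± 0.15 (adjusted p = 0.0381). Chac1, Asns, Nupr1, Ddit4 and Cebpb were named after their values were seen.

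Of 12 further translocation genes 7 were higher and 3 lower. Spcs3, a subunit of the signal peptidase, rose by 1.09 ± 0.06 (adjusted p = 3.40e-06), and Sec63, a partner of the Sec61 channel, fell by 0.58 ± 0.09 (adjusted p = 0.00123). Ssr4, like Ssr1 a subunit of the translocon-associated protein complex, rose by 0.55 ± 0.06 (adjusted p = 1.41e-04). Of 10 genes of traffic between ER and Golgi 5 were higher and none lower. Kdelr3 and Kdelr2, receptors that return chaperones to the ER, rose by 0.75 ± 0.08 and 0.48 ± 0.08, and Sec23b, a coat protein of vesicles that leave the ER, rose by 0.63 ± 0.05.

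Of 12 further degradation genes 5 were higher and 5 lower. Edem2, a relative of Edem1, rose by 0.55 ± 0.06, the ubiquitin-conjugating enzyme Ube2j1 rose by 0.46 ± 0.05, and Ubxn4, an adaptor of the ATPase p97, fell by 0.36 ± 0.03. Of 18 further folding genes 6 were higher and 4 lower. The disulfide isomerase Pdia5 rose by 0.37 ± 0.04, while the thioredoxin-related Tmx1 fell by 0.44 ± 0.08 and the glycoprotein sensor Uggt2 by 0.36 ± 0.05. Of 11 further sensors and factors 4 were higher and 1 lower. The lower one was Mbtps1, the Golgi protease that makes the first cut in ATF6, which fell by 0.39 ± 0.05. Creb3l2, a membrane-bound factor related to ATF6, rose by 0.22 ± 0.06.

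Markers of goblet cells, macrophages and cell division mostly moved with the chaperones, and those of plasma cells were divided. Of all genes tested, 17.3% were higher and 23% lower. All 10 goblet cell markers, among them Ern2, were higher, with a median of 3.00. Their summed intensity was 56.4 to 59.9 in channel 1 of PBS arrays, 2.15 to 2.55 in channel 1 of OVA arrays, and 51.7 to 63.2 and 58.5 to 64.0 in channel 2 of PBS and OVA arrays. Of 9 plasma cell markers 4 were higher and 1 lower, with a median of 0.65. Their sum was 10.1 to 10.9 and 3.86 to 6.65 in channel 1 of PBS and OVA arrays, and 7.82 to 15.1 and 10.1 to 10.7 in channel 2. Mzb1, an ER chaperone of plasma cells, rose by 1.83 ± 0.24 (adjusted p = 3.67e-04), Jchain differed by 1.08 ± 0.50 (adjusted p = 0.132) and Prdm1 fell by 0.38 ± 0.04. Like Jchain, Sdc1, Cd79a and Txndc5 were not called, with differences of -0.19, -0.15 and 0.07.

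Macrophage markers were higher for 9 of 10, with a median of 2.35 and sums of 56.9 to 59.0 and 7.74 to 8.65 in channel 1 of PBS and OVA arrays, and 52.5 to 60.6 and 54.0 to 60.1 in channel 2. Cell division markers were higher for 10 of 10, with a median of 2.42 and sums of 18.5 to 20.2 and 3.01 to 3.87 in channel 1 and 18.5 to 20.3 and 19.6 to 20.8 in channel 2. No marker on the array had a mean intensity of 0. Heart muscle genes spread over the PBS arrays, with medians of 0.10, 0.62, -0.59 and -0.75, and 1 was higher and 2 lower of 10. Their sums were 29.2 to 33.1 and 36.9 to 51.2 in channel 1 of PBS and OVA arrays, and 15.6 to 51.1 and 27.7 to 30.9 in channel 2. The wider range was thus that of channel 2 on PBS arrays and that of channel 1 on OVA arrays. Which channel held the pool on OVA arrays was not tested. Of 10 lung epithelium markers 7 were on the array and 3 could be tested, of which 1 was higher and 2 lower. The surfactant genes Sftpb, Sftpc and Sftpd and the alveolar gene Cldn18 had signal but were blank on too many arrays for a test. The part of these cell types in the changes of the folding genes was not tested.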

How the data were processed

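Lung RNA was compared between 5 OVA and 4 PBS arrays, with each array's group taken from the source label of channel 2. The submitters' processing notes name Agilent Feature Extraction, version 8.5.1.1. How the authors corrected background and dye bias is not given in the sources. Per the file headers, the deposited table lists 39464 probes, each with its intensity per channel and its p-value on every array. The deposited intensities are rounded, so that on a given array 27.7% to 48.8% of probes had equal values in both channels. The authors' second table holds log10 ratios, which matched log10 of channel 2 over channel 1 (correlation 1), and the files do not state its direction. The channels are numbered in the file and were taken as Cy3 and Cy5 from the labels. There were 0 columns of other samples.

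Symbols were updated from RefSeq, each gene was read from its brightest probe, and log2 ratios and log2 intensities of each channel were tested with limma 3.58.1 in R 4.3.3 (lmFit, eBayes, Benjamini-Hochberg). Genes with fewer than 2 values in a group were not tested. The fit was tested on simulated data. No depth exists for arrays, and their number limits the precision. All 35 members were named, and of the other pathway genes the 3 with the largest change among those called in each list. Chac1, Asns, Nupr1, Ddit4, Cebpb, Jchain, Sdc1, Cd79a and Txndc5 were named beside these after their values were seen. P4hb, Txndc11, Sesn2 and Sec61g were not matched. Members, lists and the motif search were chosen with earlier results of these data known. The alternatives were other scalings, floors, probe rules and priors, the replicate number as a block, the second table, and each array left out.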

Additional observations from a re-analysis of the deposited data

Results flagged for a closer look

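Of 69 groups of member ratios examined, 4 had an array far from the rest of its group, where chance flags about 1 in 20 groups. Both groups of Pdia6 were among them, with PBS array 3 at 0.26 against 0.00 on the other PBS arrays, and OVA array 2 at 0.58 against 0.32 on the other OVA arrays. Syvn1 was at 0.38 on OVA array 2 against 0.12 to 0.19 on the others. Trib3 was at -0.24 on OVA array 3 against 0.14 to 0.26 on the others.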

How the results depend on the processing

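Over the alternatives and left-out arrays, 645 values of single members kept their direction and their side of the threshold, 29 lost the call, 1 gained it and no called value reversed. The other 4 are values of Herpud1, not called under any setting, whose sign turned (0.04 as reported, -0.06 without PBS array 4 and about 0 under the other 3). Direction and side were kept throughout by 25 of the 34 tested members. Members called in the ratio numbered 28, with 22 to 29 under 11 alternatives and 25 to 27 with 1 array left out. Members higher numbered 23 to 26 with 1 array left out, and members lower 1 to 2. With the replicate number as a block, 22 members were called, 1 of them lower, and 7661 of all genes in place of 10363. OVA array 5 has no PBS array of its number, so it adds nothing to the change in that fit. The change of Hspa5, for example, was 0.75 with the block and 0.75 without OVA array 5. These lost calls therefore do not show the effect of the block alone. Deviations of same-numbered arrays correlated at -0.051, -0.034, -0.153 and 0.00, so no shared deviation was seen. These few correlations cannot settle whether the numbers pair the arrays. In channel 1, median centring left 16 members called, 14 of them lower, with 3934 of all genes higher and 1927 lower in place of 4012 and 3097, and the mean over probes left 1 member higher; with 1 array left out, 21 to 25 were called, 2 to 3 higher and 19 to 23 lower. In channel 2, 0 members were called under any of these, and 0 to 7 of all genes. Of the other pathway genes 32 to 47 were called (40 to 44 with 1 array left out, 26 to 30 of them higher and 14 lower). The cause of these moves was not tested. Rounded intensities limit dim probes such as that of Pdia6.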

Other observations

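Outside the pathway lists, 17 tested genes hold ERSE letters in their promoter windows. The 4 that were higher on OVA arrays were Hnrnpa3, an RNA-binding protein, at 0.84 ± 0.13 (SE, adjusted p = 0.00103 by limma), Alg12, which adds mannose to the sugar chain of glycoproteins in the ER, at 0.35 ± 0.02 (adjusted p = 1.06e-05), Zfp57 at 0.23 ± 0.06 (adjusted p = 0.0187) and 4930402F11Rik at 0.20. The 3 that were lower were Pan2, Calr4 and Spats2l. These genes are all those called among the 17, and they were named after their values were seen.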
